A study of Mus musculus with 24 samples.

Results

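The step from 14 to 28 days of age was followed in the extraocular muscle of mdx mice, the small muscles that move the eye. It was read from 6 of the 24 arrays of the series, 3 of mdx mice at 14 days and 3 of mdx mice at 28 days, over all 12422 probe sets that are not the maker's controls. A nonsense mutation in Dmd, the dystrophin gene, leaves muscle fibres of the mdx mouse without that protein; the mutation is present in all cells and the labels mention no further allele or treatment. The other arrays are 3 of wild-type mice, called control in the labels, at 14, 28, 56 and 112 days and 3 of mdx mice at 56 and 112 days. Each array gives 1 intensity per probe set from the RNA of whole muscle. The sample titles name neither a strain nor an animal, so each p-value rests on array-to-array spread that could be technical. With 3 arrays a group, precision is limited by their number.

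Dystrophin ties the inner skeleton of the fibre to the surrounding matrix, and limb muscle of mdx mice is known for waves of fibre death, inflammation and repair that start after weaning. The eye muscles are known to be largely spared. In the same weeks eye muscle is still maturing after birth: fetal growth genes are turned down, and the eyes have only recently opened at the younger age. Values of the wild-type arrays of the same ages are given beside many of the mdx values.

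Few probe sets passed the test, which with 3 arrays a group does not show that few genes changed. Of 7453 probe sets bright enough to be tested, 8 (0.107%) passed an adjusted p of 0.05 in the fit by limma. The fit is a linear model across all probe sets and all 24 arrays with Benjamini-Hochberg adjustment. The fetal genes Dlk1 and Meg3, the tetraspanin gene Cd9 and Dmwd, a gene of the myotonic dystrophy locus, fell (4 probe sets, 0.0537%). The enzyme genes Cyp2e1 and Cryz, 1 probe set of the anchoring protein gene Gkap1 and a probe set with no gene symbol rose (4 probe sets, 0.0537%). Over all tested probe sets 50.2% had a log2 change above 0 and the median change was 0.00; scaling every array to the same mean centres these values. The arrays of the 2 ages did not overlap in 445 probe sets that were higher at 28 days (5.97%) and 524 that were lower (7.03%). At an unadjusted p under 0.05 there were 605 probe sets (8.12%), with 4.03% of the tested probe sets higher and 4.09% lower at 28 days. In the fit the wild-type step had 21 calls (0.282%), 42.6% of its changes were above 0, and its median change was -0.06. The difference of the 2 steps was called in 1 probe set (0.0134%), that of Dmwd, and 217 probe sets (2.91%) had an unadjusted p under 0.05. The number of mdx calls depended on the libraries. It was 6, 2 and 11 without replicate 1, 2 or 3 of the 14-day mdx arrays, 1, 1 and 12 without replicate 1, 2 or 3 of the 28-day mdx arrays, and 22 without replicate 2 of the 56-day and replicate 1 of the 112-day wild-type arrays, which stand apart from the rest of the series. Those 2 wild-type arrays had the lowest mean correlations with the other arrays, 0.865 and 0.908. The next lowest, 0.918 for replicate 2 of the 28-day wild-type arrays, was kept. They lie outside the step, so leaving them out changed no log2 step and acted only through the shared estimate of the spread. Calls gained that way are therefore not separate support. Fitted on the 6 mdx arrays alone the number of calls was 0, with 493 probe sets at an unadjusted p under 0.05.

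The log2 values of the 6 mdx arrays correlated with each other at 0.911 to 0.957, and their largest deposited intensity lay between 32524 and 65310. Of these 6, replicate 3 of the 14-day arrays had the lowest largest intensity and the lowest ratio of 3' to 5' signal for Gapdh, at 0.0779. The other 5 ranged from 0.258 to 0.809. Outside the step the Gapdh ratio went lower, to 0.0126 on replicate 3 of the 56-day wild-type arrays. Replicate 3 of the 14-day mdx arrays received a weight of 0.238 where limma estimated weights, the lowest of the 6. The 3' to 5' ratio of actin was 0.253, 1.24 and 0.564 on the 14-day arrays and 1.91, 1.02 and 1.12 on the 28-day arrays, so the ages overlapped, and the 0.253 of replicate 1 was the lowest of all 24 arrays. The part of these differences in the results was not tested, and changes without replicate 3 of the 14-day arrays are given beside several of the results. The labelled tissue was plain in the signal: the 19 tested fast muscle genes summed to between 77521 and 186808 on the 6 arrays. Lacrimal and Harderian gland markers (6 of 17 genes with a probe set tested) summed to 1387 to 3203, retina and lens markers (5 of 27) to 984 to 2086, and surface epithelium and melanocyte markers (13 of 31) to 2617 to 4315. Myh13, the myosin particular to eye muscle, had no probe set that bears its name.

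**Figure D1:**
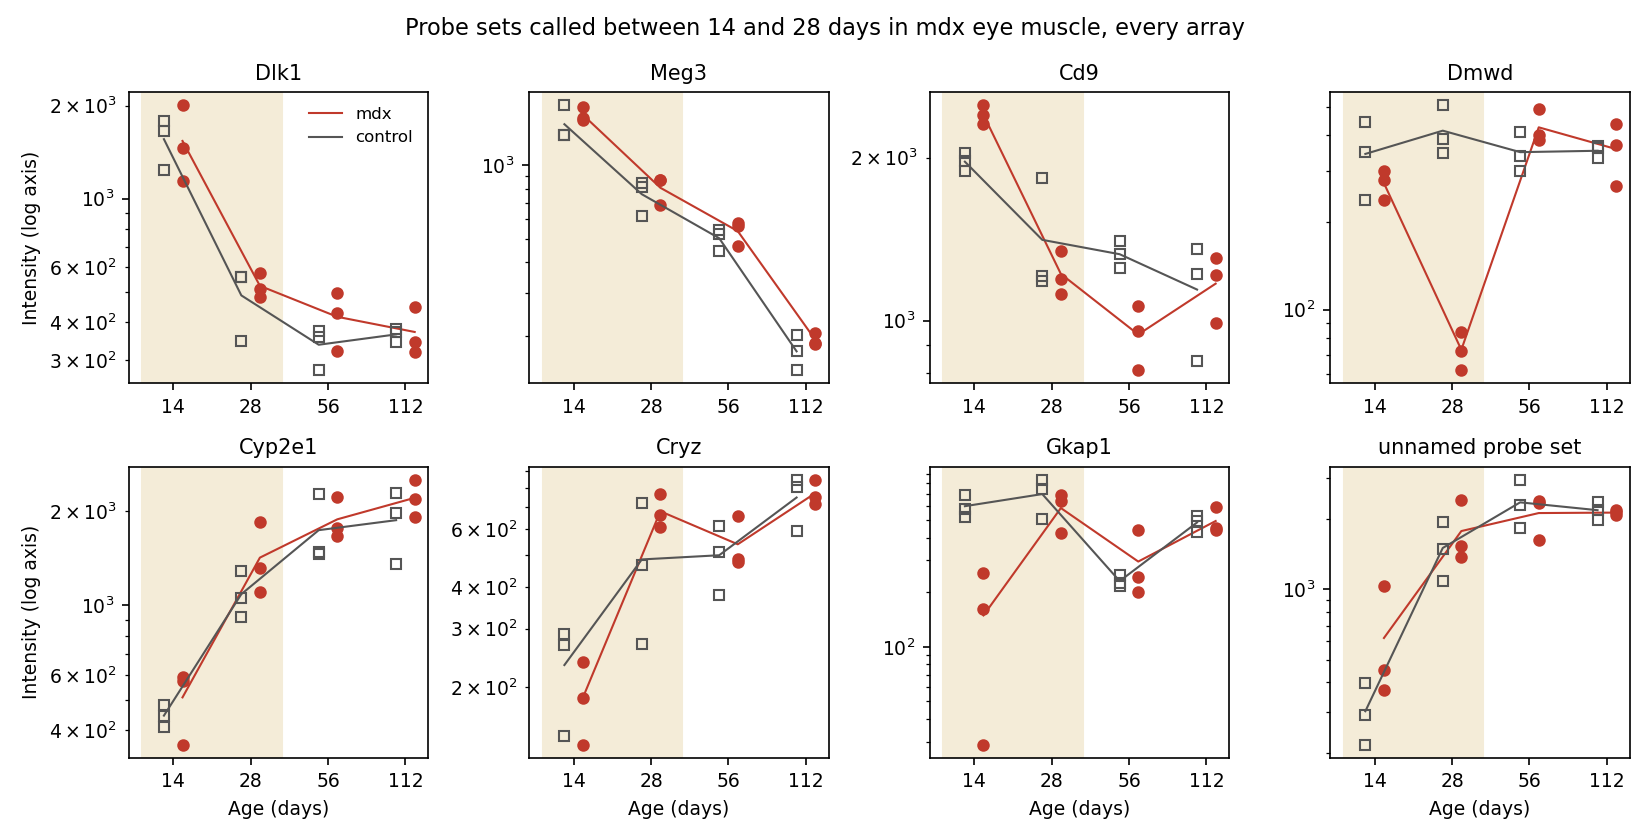
Scaled intensity (log axis) of the 8 called probe sets on all 24 arrays against age in days; red circles are mdx and open grey squares wild-type arrays, lines join the group means and the shaded band holds the 2 ages compared. Dlk1 and Meg3 went down and Cyp2e1 went up in both genotypes, while Dmwd was low on the 3 mdx arrays of 28 days alone (62.0 to 84.0).

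Dmd itself checks the labels. Its probe set read 96.6, 184 and 122 on the mdx arrays at 14 days and 123, 94.7 and 128 at 28 days. The ages overlapped, and the step was -0.16 ± 0.28 (log2, SE, n = 3 against 3 arrays, adjusted p = 0.953 by limma). Its sign turned without replicate 2 of the 14-day arrays (0.066), so no direction can be read. At 14 days the wild-type arrays averaged 305 ± 47.6 (SD, n = 3) against 134 ± 45.0 for mdx, and at 28 days 218 ± 18.3 against 115 ± 18.0. Every mdx array lay below every wild-type array of its age, although neither difference passed the test (adjusted p = 0.691 and 1.00 by limma). Utrn, the gene of the related protein utrophin, had 2 probe sets with steps of -0.07 ± 0.50 and 0.05 ± 0.54 (adjusted p = 0.989 and 0.992 by limma). The first turned sign without replicate 2 of the 28-day arrays (0.078).

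Dlk1 and Meg3 are imprinted genes, each read from the chromosome of 1 parent only: Dlk1, a membrane protein of the Notch ligand family that marks fetal and regenerating muscle, from the father's, and Meg3, a long noncoding RNA, from the mother's. They lie near each other on chromosome 12 with 2 annotated genes between them, none of them protein coding. Because these neighbours are both among the 8 called probe sets, the 250 bases upstream of their start sites are shown, from RefSeq on GRCm38.p6, plus strand, with each CG dinucleotide, the site of DNA methylation, in capitals. The window of Dlk1 is chr12:109452573-109452822, and that of Meg3 is chr12:109540746-109540995, the first of 2 windows listed for the gene.
Dlk1: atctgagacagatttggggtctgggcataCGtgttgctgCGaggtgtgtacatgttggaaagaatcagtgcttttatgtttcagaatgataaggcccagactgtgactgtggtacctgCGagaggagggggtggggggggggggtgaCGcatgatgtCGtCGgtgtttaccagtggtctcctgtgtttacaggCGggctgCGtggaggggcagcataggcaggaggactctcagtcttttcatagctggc
Meg3: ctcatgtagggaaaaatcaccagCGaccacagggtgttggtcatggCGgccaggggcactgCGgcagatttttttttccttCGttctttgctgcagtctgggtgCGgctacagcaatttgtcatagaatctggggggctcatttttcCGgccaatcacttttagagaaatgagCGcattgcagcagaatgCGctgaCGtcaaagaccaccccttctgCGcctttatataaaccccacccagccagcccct
The Dlk1 window held 8 CG dinucleotides and that of Meg3 held 10, against a median of 6 in all 32851 windows of the table. Windows with fewer made up 57% for Dlk1 and 62.2% for Meg3. These counts describe the sequence only, since the arrays measure no methylation.

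Dlk1 had intensities of 1463, 2005 and 1143 at 14 days and 482, 509 and 577 at 28 days on the mdx arrays. Every array of 28 days was below every array of 14 days. It fell by 1.49 ± 0.23 on the log2 scale (SE, n = 3 against 3 arrays, adjusted p = 0.0057 by limma), which is 2.82-fold with the offset of 16 that precedes the log. The wild-type step was -1.66 (adjusted p = 0.00114 by limma), and the mdx mean went on to 415 ± 87.9 at 56 days and 371 ± 67.5 at 112 days (SD, n = 3). The step from 14 to 28 days was the largest of the 3 steps between mdx group means. The call was lost without replicate 2 of the 14-day arrays (-1.28, adjusted p = 0.057 by limma) and without replicate 1 or 2 of the 28-day arrays (-1.44 and -1.48, adjusted p = 0.0706 and 0.0501). In muscle taken whole, fewer cells of a type and less RNA per cell cannot be told apart, here and in all that follows.

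Meg3 read 1549, 1522 and 1731 at 14 days and 866, 866 and 688 at 28 days in its called probe set. The ages were apart by a wide gap, and the 28-day arrays agree within a narrow band. It fell by 0.98 ± 0.17 (log2, SE, adjusted p = 0.0191 by limma), next to -0.93 in wild-type muscle (adjusted p = 0.0243 by limma). The mdx mean was 537 ± 61.0 at 56 days and 194 ± 11.5 at 112 days (SD, n = 3). The second Meg3 probe set read 3516, 3501 and 3497 at 14 days and 1691, 1629 and 1589 at 28 days on the mdx arrays. These groups did not overlap either, but its step of -1.09 ± 0.45 missed the threshold (adjusted p = 0.515 by limma). In wild-type muscle that probe set had a step of -2.39 (adjusted p = 0.0243 by limma), and the difference of the 2 steps, 1.29 ± 0.64, was not called (adjusted p = 0.998 by limma). The call of the first probe set was lost without any 1 of the 6 arrays (adjusted p = 0.0587 to 0.0886 by limma), with changes of -0.87 to -1.03.

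The other imprinted growth genes gave the same sign more often than not. Of 15 tested besides Dlk1 and Meg3, 10 were lower at 28 days, none was called by limma (3 lower and 0 higher at an unadjusted p under 0.05), 4 had arrays that did not overlap downward (7.03% over all tested probe sets), and the median change was -0.17, against a median of 0.00 over all tested probe sets. The wild-type median was -0.42. With Dlk1 and the second Meg3 probe set included the mdx median was -0.27, and it ranged from -0.36 without replicate 1 of the 14-day arrays to -0.17 without replicate 2 of the 28-day arrays. Cdkn1c, an inhibitor of cell division, read 3806, 4682 and 2853 at 14 days and 2071, 2046 and 2577 at 28 days, with all 28-day arrays lower (-0.74 ± 0.21, adjusted p = 0.274 by limma). Plagl1, a zinc finger transcription factor, read 177, 478 and 342 and then 153, 120.2 and 110.1 (-1.19 ± 0.40, adjusted p = 0.367 by limma). Mest, a protein of the hydrolase fold, had 1056, 1339 and 551 and then 418, 381 and 656, with overlapping ages (-0.94 ± 0.33, adjusted p = 0.392 by limma). Peg3, a large zinc finger protein, had 3 probe sets that disagree: -1.54 ± 0.37 with 3937, 3690.1 and 3462 before 848, 936 and 2487, beside -0.60 ± 0.45 and 0.06 ± 0.37 (adjusted p = 0.172, 0.845 and 0.989 by limma). None of these reached the threshold. The probe set with the largest Peg3 change passed without the 2 wild-type arrays that stand apart (adjusted p = 0.0162 by limma).

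A further 3 genes were lower at 28 days but fell below the filter on the mean over all arrays, at an intensity of 125.7. They passed in the fit with no filter over all 12422 probe sets and were named after their values were seen. Kcne1l, a small subunit that modulates potassium channels, read 1401, 1504 and 1356 on the mdx arrays at 14 days and 180.0, 27.2 and 58.7 at 28 days. All 3 older arrays were far below all 3 younger ones. The gene fell by 4.06 ± 0.39 on the log2 scale (adjusted p = 5.99e-06 by limma with no filter), and its mean was 44.8 ± 13.4 at 56 days and 30.6 ± 1.47 at 112 days (SD, n = 3). Wild-type muscle had nearly the same step, -3.98 (adjusted p = 8.99e-06 by limma with no filter). The call held without any 1 of the 6 mdx arrays, with changes of -3.57 to -4.66, and with an offset of 1 or 64 (-4.40 and -3.41). Nrk, a protein kinase known from embryonic muscle, read 90.7, 114 and 107 and then 5.96, 10.1 and 43.6 (-1.88 ± 0.29, adjusted p = 0.00532 by limma with no filter). Its call was lost without replicate 2 of the 14-day arrays or replicate 1 or 2 of the 28-day arrays (adjusted p = 0.0542, 0.0854 and 0.0604 by limma). Agtr2, the angiotensin receptor of fetal tissue, read 259.6, 217 and 108 and then 66.7, 13.5 and 11.2 (-2.30 ± 0.44, adjusted p = 0.0329 by limma with no filter). Its call was lost without replicate 1 or 2 of the 14-day arrays (adjusted p = 0.200 and 0.214 by limma) or replicate 2 or 3 of the 28-day arrays (0.363 and 0.146). Of their 28-day values, 5.96 and 10.1 for Nrk and 13.5 and 11.2 for Agtr2 lie under the added offset of 16, so the size of both changes depends on it. With an offset of 1, chosen after seeing the data for this fit, the changes were -2.79 and -3.00 and the calls were lost (adjusted p = 0.0938 and 0.16 by limma with no filter), and with 64 they were -1.03 and -1.45 and the calls were kept (adjusted p = 0.00133 and 0.0236). For Nrk and Agtr2 the wild-type steps were -2.29 and -2.22 (adjusted p = 0.00048 and 0.0364 by limma with no filter). The filter on the mean keeps these 3 from being among the 8.

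Cd9 encodes a tetraspanin of the cell surface that takes part in cell fusion and adhesion. It read 2304, 2399 and 2500.2 at 14 days and 1120.2, 1195 and 1343 at 28 days on the mdx arrays. Both groups were tight and far apart, and the gene fell by 0.97 ± 0.18 (log2, SE, adjusted p = 0.0329 by limma). In wild-type muscle 1 of 3 arrays at 28 days stayed near the younger level, and the step was -0.50 (adjusted p = 0.335 by limma). The difference of the 2 steps was -0.47 ± 0.26 and was not called (adjusted p = 0.998 by limma). The call was lost without any 1 of the 3 arrays of 14 days (adjusted p = 0.076, 0.124 and 0.0771 by limma) and without replicate 1 or 2 of the 28-day arrays (0.231 and 0.165).

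Dmwd codes for a protein with WD repeats and stands next to Dmpk, the kinase gene whose repeat expansion causes myotonic dystrophy in people. Its intensities on the mdx arrays were 239.6, 299.6 and 279 at 14 days and 84.0, 72.4 and 62.0 at 28 days. All 28-day arrays were well below all 14-day arrays, and it fell by 1.70 ± 0.23 (log2, SE, adjusted p = 0.00232 by limma). The mdx level was back at 425 ± 57.5 at 56 days and 357 ± 84.9 at 112 days (SD, n = 3), so that the drop was seen at 28 days only. In wild-type muscle the arrays read 349.5, 239 and 443 at 14 days and 388, 506 and 347 at 28 days, a step of 0.28 (adjusted p = 0.781 by limma). The difference of the steps was -1.98 ± 0.33 (adjusted p = 0.0409 by limma), and the log2 difference of mdx from wild type at 28 days was -2.26 (adjusted p = 1.98e-05 by limma). Dmpk, with no annotated gene between it and Dmwd, read 2996, 4570.1 and 3311 and then 4363, 5102 and 2742, with overlapping ages (0.14 ± 0.28, adjusted p = 0.96 by limma). The step of Dmwd kept its call without any 1 of the 6 mdx arrays (adjusted p = 0.00456 to 0.034 by limma). The difference between genotypes did not: it was called without replicate 3 of the 14-day wild-type arrays and lost without any of the other 11 arrays of the 2 ages (adjusted p = 0.0556 to 0.216 by limma).

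**Figure D2:**
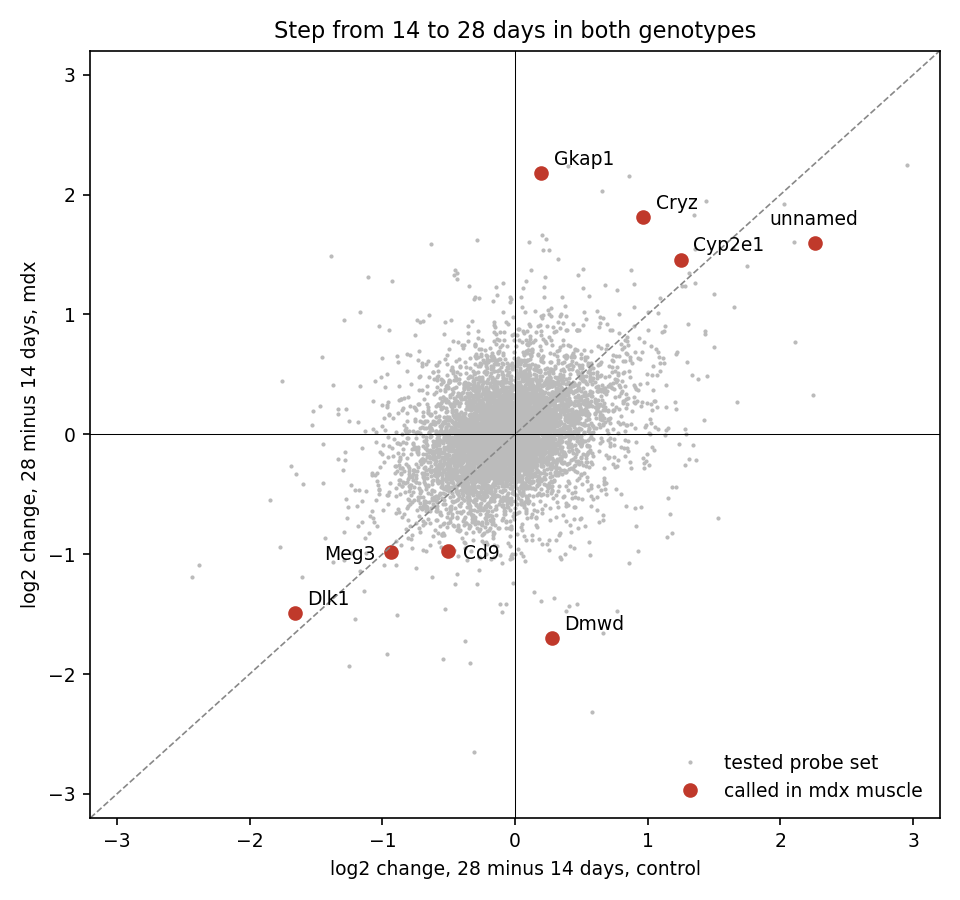
Log2 change from 14 to 28 days in mdx muscle (vertical) against that in wild-type muscle (horizontal) for the 7453 tested probe sets; grey points are probe sets, red points are the 8 called in mdx muscle and the dashed line marks equal change. Of the called probe sets 7 have the same sign in both genotypes, and Dmwd lies at -1.70 in mdx and 0.28 in wild type.

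Among the genes that rose, Cyp2e1, a cytochrome P450 that oxidises ethanol and other small molecules, read 592, 573 and 359 at 14 days and 1842, 1319 and 1102 at 28 days. Every older array was above every younger one. The rise was 1.46 ± 0.24 (log2, SE, adjusted p = 0.00856 by limma), and the mdx mean reached 1884 ± 296 at 56 days and 2207 ± 304 at 112 days (SD, n = 3). Wild-type muscle had a step of 1.25 (adjusted p = 0.0243 by limma). Without replicate 1 or 2 of the 28-day arrays the call was lost (1.25 and 1.49, adjusted p = 0.0886 and 0.0501 by limma). Adipoq, the fat cell hormone adiponectin, was the only 1 of 12 tested fat cell genes whose arrays did not overlap upward (739, 723 and 647, then 1289, 977 and 1024, 0.62 ± 0.18, adjusted p = 0.274 by limma), and the median of these genes was -0.21 (-0.078 without replicate 3 of the 14-day arrays). The part of fat cells in the Cyp2e1 value was not tested.

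Cryz, a quinone oxidoreductase first known as a lens protein of some mammals, had intensities of 134, 185 and 238 and then 766, 663 and 608. The 2 ages were far apart, and the rise was 1.81 ± 0.30 (log2, SE, adjusted p = 0.00856 by limma). In wild-type muscle the arrays spread more widely, from 270 to 719 at 28 days, and the step was 0.97 (adjusted p = 0.24 by limma). The difference of the 2 steps, 0.85 ± 0.42, was not called (adjusted p = 0.998 by limma). The mdx call was lost without replicate 1 or 2 of the 14-day arrays (adjusted p = 0.0682 and 0.057 by limma) and without replicate 1 or 2 of the 28-day arrays (0.0886 and 0.0569).

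Gkap1, an anchoring protein of a cGMP-dependent kinase, gave a call in 1 of its 3 probe sets. That probe set read 256, 162 and 28.9 at 14 days, with replicate 3 far below the others, and 640.1, 685 and 423 at 28 days (2.18 ± 0.42, adjusted p = 0.0329 by limma). Without replicate 3 of the 14-day arrays the rise was 1.41 and was not called (adjusted p = 0.0598 by limma). It was also lost without replicate 2 of the 14-day arrays (2.41, adjusted p = 0.0587) and without replicate 1 or 2 of the 28-day arrays (2.10 and 2.05, adjusted p = 0.231 and 0.28). The second tested probe set had a step of -0.20 ± 0.26 (adjusted p = 0.919 by limma), and the third was too dim to be tested. The probe sets of Gkap1 disagree. In the called probe set the wild-type step was 0.20, and the difference of the 2 steps, 1.98 ± 0.59, was not called (adjusted p = 0.998 by limma). At 14 days the wild-type arrays averaged 597 ± 86.1 against 149 ± 114 for mdx (SD, n = 3), a difference that was not called (adjusted p = 0.0871 by limma).

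The called probe set that the platform annotation pairs with no gene symbol read 452, 371 and 1035 at 14 days and 2420.4, 1373 and 1532 at 28 days. The ages did not overlap, and the rise was 1.59 ± 0.31 (adjusted p = 0.0329 by limma), beside 2.26 in wild-type muscle (adjusted p = 0.00114 by limma). Its call was kept without replicate 3 of the 14-day arrays (adjusted p = 0.00257 by limma) and lost without any of the other 5 mdx arrays (adjusted p = 0.0539 to 0.351).

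Some probe sets lay just outside the threshold, in both directions. A probe set without a single gene symbol rose by 2.03 ± 0.42 (adjusted p = 0.0564 by limma), and Ccl8, described below, rose too. Agpat3, an acyltransferase of phospholipid synthesis, read 898, 1104 and 1328 and then 517, 552 and 649.8 (-0.92 ± 0.19, adjusted p = 0.0552 by limma). Slc3a2, the heavy chain of amino acid transporters, read 1536, 1153 and 1448 and then 615, 686 and 846 (-0.93 ± 0.19, adjusted p = 0.0577 by limma). Sgip1, which acts in endocytosis, read 349, 425 and 132 and then 18.0, 47.5 and 28.1 (-2.65 ± 0.55, adjusted p = 0.0577 by limma). In Agpat3, Slc3a2 and Sgip1 the older arrays were lower without overlap. All 3 passed without the 2 wild-type arrays that stand apart, with unchanged log2 steps (adjusted p = 0.00699, 0.0454 and 0.0162 by limma). Agpat3 also passed without replicate 1 of the 14-day mdx arrays (0.0435), Slc3a2 without replicate 3 of the 28-day mdx arrays (0.0474) and Sgip1 without replicate 3 of the 14-day mdx arrays (0.024).

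Immune genes leaned upward as a group, though none passed the test by limma in either list. All 29 tested antigen presentation and interferon genes had a log2 change above 0, where the share over all tested probe sets was 50.2%. Their median change was 0.42, 4 had an unadjusted p under 0.05, and 7 had arrays that did not overlap upward, against 5.97% of all tested probe sets. The median was 0.08 in wild-type muscle, where 17 of 29 were above 0. The difference between genotypes was not tested for the list. H2-Aa, a chain of the class II molecules that present antigen to T cells, read 57.4, 70.9 and 390.3 at 14 days and 579, 421 and 526 at 28 days. Replicate 3 of the younger age stood near the older arrays, and the step was 1.92 ± 0.55 (adjusted p = 0.274 by limma), beside 2.03 in wild-type muscle. Without that array it was 2.70 and passed (adjusted p = 0.0204 by limma). H2-Eb1, another class II chain, read 809, 729.8 and 515 and then 947, 1104 and 1188 (0.66 ± 0.29, adjusted p = 0.555 by limma), beside 0.73 in wild-type muscle. Cd74, the chain that escorts class II molecules, read 694, 763 and 1480.5 and then 1499, 1772 and 1365, with the ages overlapping (0.73 ± 0.28, adjusted p = 0.482 by limma). The wild-type step of Cd74 was 0.82. H2-K1, a class I molecule, read 1779, 1777 and 2132 and then 2742, 2452 and 3370.4 in its brightest probe set (0.58 ± 0.17, adjusted p = 0.282 by limma). In that probe set H2-K1 had a wild-type step of 0.62. Its other 2 probe sets disagree, with steps of 1.20 and -0.03. The H2 genes are near copies of each other, so that a probe set may pick up more than 1 of them. Without 1 of the 6 mdx arrays 24 to 28 of the 29 were above 0, with medians of 0.31 to 0.40.

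Macrophage genes were part of the same picture. Of 25 tested, 18 were higher at 28 days, none was called by limma (5 at an unadjusted p under 0.05), 6 had arrays that did not overlap upward (5.97% over all tested probe sets), and the median was 0.27, against 0.05 in wild-type muscle. Ccl8, a chemokine that draws monocytes and T cells, read 70.3, 57.6 and 84.8 on the mdx arrays at 14 days and 289, 460.2 and 444 at 28 days. The older arrays were all far above the younger ones, and the step was 2.24 ± 0.48 (adjusted p = 0.0748 by limma). It stayed high in mdx muscle, at 327 ± 114 at 56 days and 610.3 ± 44.5 at 112 days (SD, n = 3). The wild-type arrays read 163, 54.6 and 119 and then 70.8, 236 and 164, a step of 0.40, and the difference of the steps, 1.83 ± 0.68, was not called (adjusted p = 0.998 by limma). Ccl8 passed without the 2 wild-type arrays that stand apart (adjusted p = 0.0103 by limma). Lyz2, the lysozyme of macrophages, read 902, 962 and 985 and then 1666, 1506 and 1811 (0.79 ± 0.32, adjusted p = 0.485 by limma, and 0.0397 without the same 2 arrays). Ctss, a protease of antigen-presenting cells, read 542, 477 and 577 and then 732, 971 and 932 (0.70 ± 0.24, adjusted p = 0.383 by limma). C1qc, a subunit of complement C1q, read 1346, 1311 and 1266 and then 1973, 1956 and 1954 (0.58 ± 0.26, adjusted p = 0.555 by limma). In each of these the ages did not overlap. The other C1q subunit genes did not follow C1qc: C1qa and C1qb had changes of -0.10 and 0.07, with overlapping arrays. The defining macrophage genes Csf1r, Cd68 and Cx3cr1 had changes of 0.21, 0.42 and -0.01, also with overlapping arrays. Lymphocyte markers (7 of 21 genes with a probe set tested) had 5 higher and 2 lower and a median of 0.11.

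**Figure D3:**
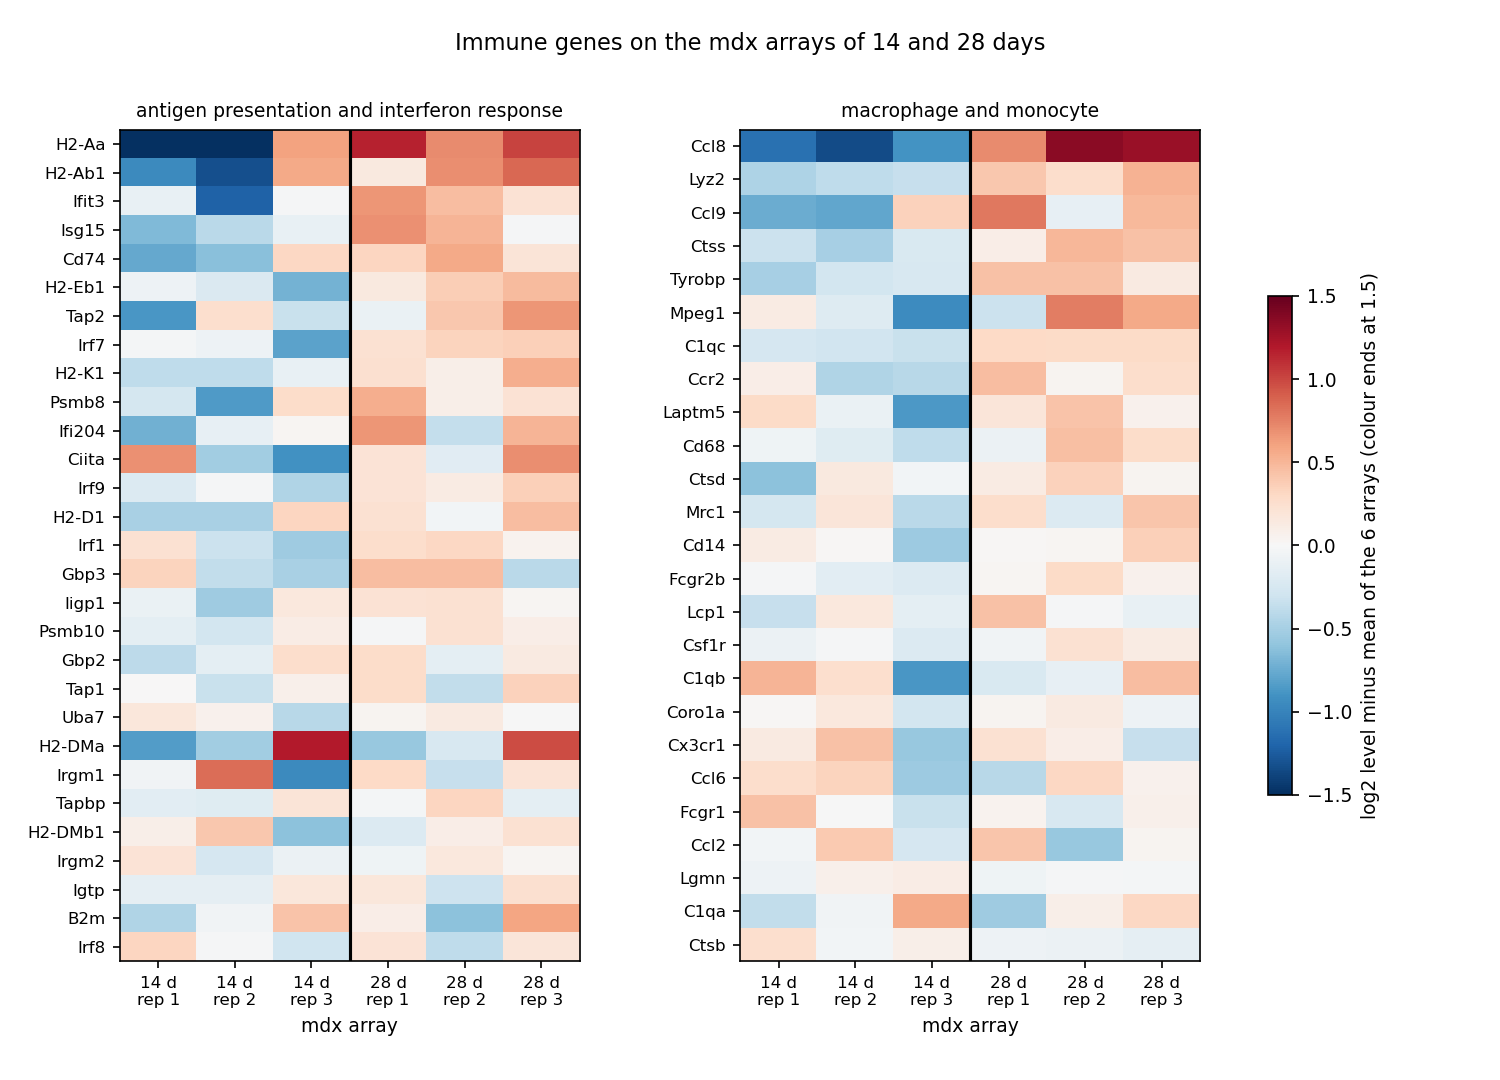
Colour shows the log2 level of each gene on the 6 mdx arrays minus its mean over them, for the 29 antigen presentation and interferon genes (left) and the 25 macrophage genes (right), ordered by their change; columns are arrays and the black line parts the ages. The uppermost genes, such as H2-Aa (1.92) and Ccl8 (2.24), are mostly lower at 14 days. Replicate 3 of that age lies above the mean of the 6 arrays for H2-Aa, H2-Ab1, Cd74 and Ccl9, among others.

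No contractile gene was called. The embryonic myosin gene Myh3 had a step of 0.32 ± 0.94 and the perinatal Myh8 one of -0.51 ± 0.50 (adjusted p = 0.976 and 0.885 by limma). Myh8 read 2279.8, 2219.8 and 2815 and then 1794, 1569.5 and 1733, with all 28-day arrays lower. The adult myosins Myh1, Myh4 and Myh7 had steps of -0.01 ± 0.35, 0.29 ± 0.73 and 0.03 ± 0.19 in their brightest probe sets (adjusted p = 0.993, 0.974 and 0.989 by limma), and no direction can be read for Myh1 and Myh7, whose sign turned with single arrays. Of 19 fast muscle genes 14 were higher at 28 days, none was called by limma (4 at an unadjusted p under 0.05), and the median was 0.29. This rests on replicate 3 of the 14-day arrays, since without it 7 of 19 were higher and the median was -0.22. In wild-type muscle the median of the fast muscle genes was 0.20, with 14 of 19 higher. Ryr1, the calcium release channel, read 5139, 6411 and 5760.4 and then 9947, 10978 and 8161 (0.74 ± 0.21, adjusted p = 0.274 by limma). Actn3, the actinin of fast fibres, read 2599, 2903 and 2528 and then 4224, 5008 and 4249.5 (0.74 ± 0.22, adjusted p = 0.292 by limma). In both genes the ages were apart. Of 25 myogenic factors and developmental muscle genes 17 were lower and 1 was called, Dlk1 again, with a median of -0.13. In wild-type muscle the median of these genes was -0.40. The mdx median was -0.25 without replicate 1 of the 14-day arrays.

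Genes of the fibre's coat and of small vessels leaned downward. Of 17 basement membrane genes 15 were lower at 28 days, none was called by limma (4 at an unadjusted p under 0.05), 4 had arrays that did not overlap downward (7.03% over all tested probe sets), and the median was -0.30, with -0.29 in wild-type muscle. Lama2, the laminin chain of the muscle basement membrane, read 1689, 1838 and 1643 and then 1309, 1236 and 1202 (-0.46 ± 0.16, adjusted p = 0.383 by limma). Col4a2, a chain of collagen IV, read 5611, 5368 and 4215 and then 3659.8, 4034 and 3821 (-0.39 ± 0.16, adjusted p = 0.499 by limma). Both genes had lower values on every older array. Of 25 genes of endothelium and vessel wall 18 were lower, none was called by limma (5 at an unadjusted p under 0.05), 6 did not overlap downward, against the same 7.03%, and the median was -0.18, beside 0.01 in wild-type muscle. Without replicate 3 of the 28-day arrays that median was -0.10. Sox18, an endothelial transcription factor, read 1040.1, 1001 and 1567 and then 699.8, 663 and 651 (-0.80 ± 0.21, adjusted p = 0.249 by limma), and it passed without the 2 wild-type arrays that stand apart (adjusted p = 0.0473 by limma). Cdh5, the cadherin of endothelial junctions, read 3296, 3359.9 and 1942 and then 1581, 1771 and 1610.3 (-0.75 ± 0.22, adjusted p = 0.296 by limma). Again no 28-day array reached the level of a 14-day array.

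Among 46 genes of fibrillar collagen and matrix assembly 18 were higher and 28 lower, none was called by limma (at an unadjusted p under 0.05, 1 higher and 5 lower), and the median was -0.05. Fmod, a proteoglycan that binds collagen fibrils, read 274, 63.7 and 687 and then 1012, 809 and 1075 (1.94 ± 0.48, adjusted p = 0.22 by limma). The younger arrays differed widely among themselves, and without replicate 3 of that age the change was 2.68 and passed (adjusted p = 0.00520 by limma), while without replicate 2 it was 1.11 (adjusted p = 0.377). Fbln2, a matrix glycoprotein of developing tissue, read 3006, 2894 and 3799 and then 1654, 1683 and 2596 (-0.73 ± 0.21, adjusted p = 0.274 by limma). Fbln2 was lower on every older array.

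In energy metabolism, 29 of 38 genes of the citric acid cycle and of fatty acid breakdown were lower at 28 days, none was called by limma (at an unadjusted p under 0.05, 5 lower and 1 higher), 7 had arrays that did not overlap downward (7.03% over all tested probe sets) and the median was -0.21, beside -0.06 in wild-type muscle. Without replicate 2 of the 28-day arrays that median was -0.13. Fabp3, the fatty acid carrier of muscle, read 6625, 8888 and 6921 and then 5302, 4318 and 3514 (-0.78 ± 0.22, adjusted p = 0.274 by limma). Eci1, an isomerase of fatty acid oxidation, read 3521, 3489 and 6248 and then 2840.0, 2830.5 and 1996 (-0.75 ± 0.21, adjusted p = 0.269 by limma), and without replicate 3 of the 14-day arrays the change was -0.47 (adjusted p = 0.505). Acadl, a dehydrogenase of the same pathway, read 3013, 3815 and 3156 and then 2175, 1928 and 2344 (-0.62 ± 0.24, adjusted p = 0.474 by limma). The ages did not overlap in any of these. In wild-type muscle the steps of Fabp3, Eci1 and Acadl were -0.73, -0.26 and -0.34. Oxct1, which starts the use of ketone bodies, went the other way, with 1279, 1424 and 2489.9 and then 3477, 3606 and 2418 (0.91 ± 0.23, adjusted p = 0.228 by limma). The ages overlapped through replicate 3 of 14 days, without which the change was 1.20 and passed (adjusted p = 0.0204 by limma). The wild-type step of Oxct1 was 1.13. Of 28 glycolysis and glycogen genes 18 were higher, none was called by limma (4 at an unadjusted p under 0.05) and the median was 0.19, beside 0.37 in wild-type muscle; the mdx median was 0.11 without replicate 1 of the 14-day arrays. The 52 tested subunits and partners of oxidative phosphorylation had a median of 0.09 in both genotypes, but that of mdx muscle was 0.23 without replicate 2 and -0.018 without replicate 3 of the 14-day arrays, so no direction can be read.

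**Figure D4:**
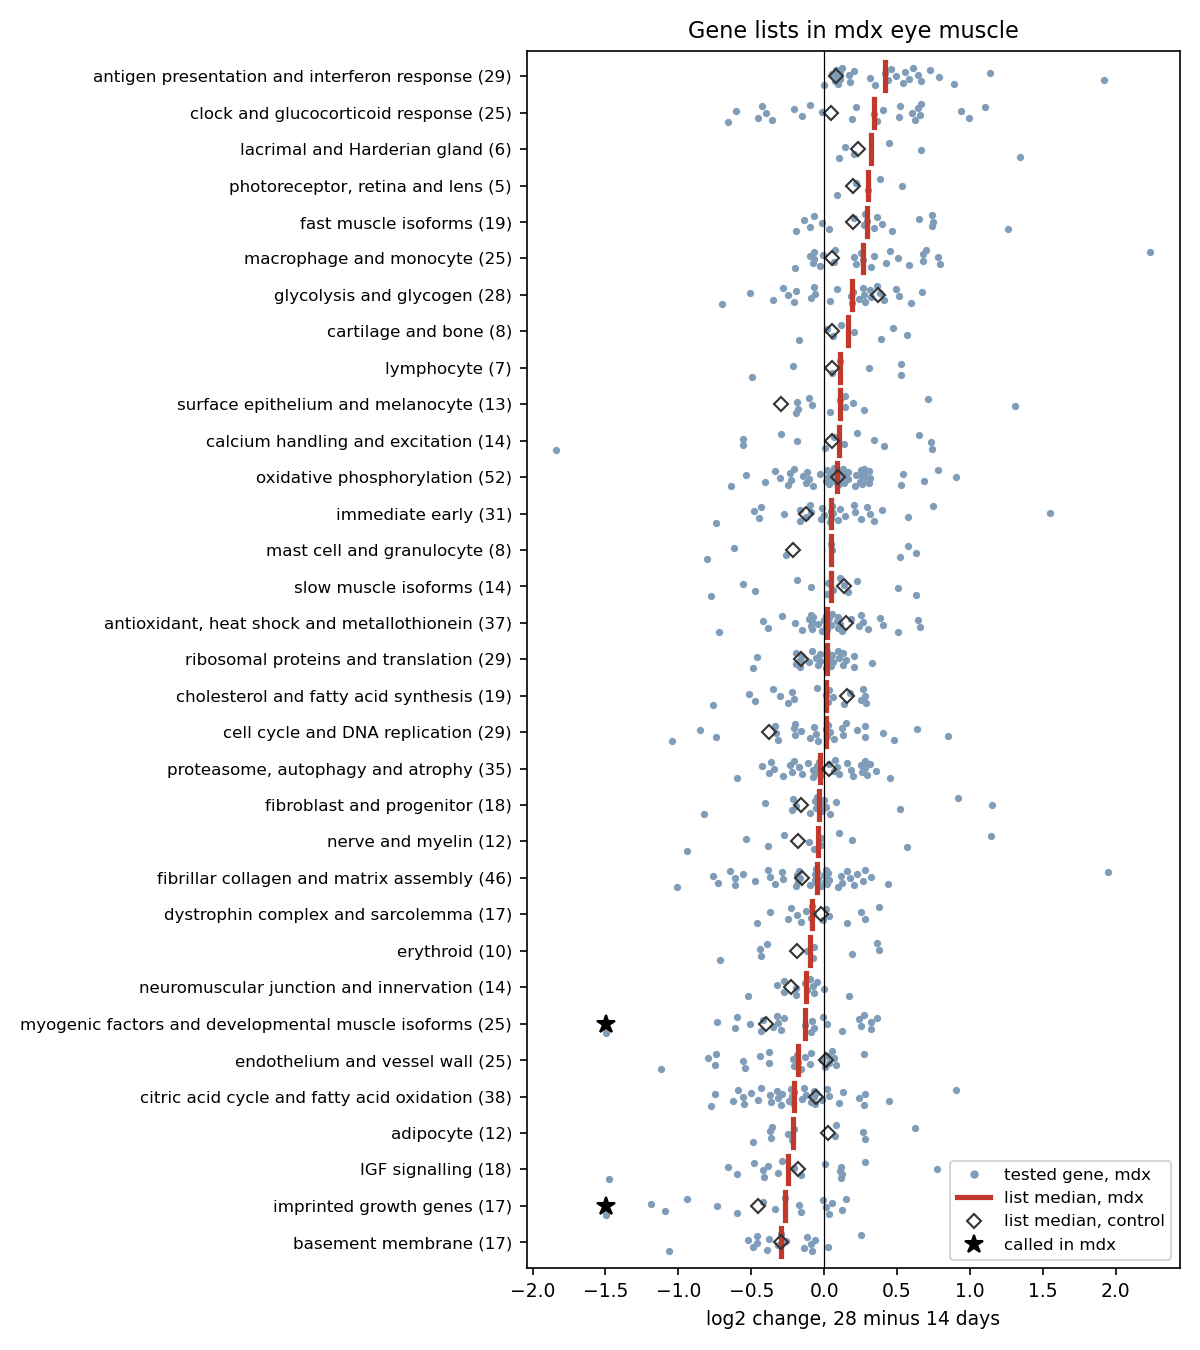
Log2 change from 14 to 28 days in mdx muscle for the tested genes of each list with 5 or more of them (blue points, number in brackets), with the list's median in mdx (red bar) and wild-type muscle (open diamond); a star marks a called gene. Medians run from -0.30 for basement membrane to 0.42 for antigen presentation and interferon response, and the only starred gene is Dlk1, in 2 lists.

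Across the 34 lists 648 genes were tested and 1 was called, Dlk1. Cell cycle genes, which in wild-type muscle had a median of -0.37 with 5 of 29 higher, had a median of 0.01 in mdx muscle with 15 of 29 higher. The difference was not tested for the list, and without replicate 3 of the 14-day mdx arrays the mdx median was -0.25 with 6 of 29 higher. Over all 7453 probe sets the 2 steps, which share no array, correlated at 0.319, a description across genes that are not independent replicates.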

How the data were processed

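RNA of mouse extraocular muscle was measured on 24 Affymetrix arrays, 3 in each of 8 groups of genotype and age, taken from the sample titles. The authors deposited 1 intensity per probe set and array on a linear scale, already brought to 1 common mean on every array; the software that made these intensities is not given in the sources used here. Values under 1 were set to 1, each array was scaled to a mean of 500 without its lowest and highest 2%, and 16 was added before log2. After removal of 66 control probe sets, 7453 of 12422 at or above the 40th percentile of mean log2 level (intensity 125.7) were fitted in limma 3.58.1 (R 4.3.3) with 1 mean per group over all 24 arrays, a variance trend and Benjamini-Hochberg adjustment. The fit was tested on simulated data, where 56% of log2 changes of 1 and 94% of those of 2 were called, with 5 false calls. In that simulation the noise was independent from array to array, and 100 probe sets were changed at each size. These shares therefore need not hold for the real arrays. Gene symbols came from the platform annotation: 10833 probe sets had 1 symbol, 396 several and 1193 none, and only probe sets with 1 symbol were named. Text genes were up to 20 called in each direction without overlap of arrays, up to 6 members of each of 34 lists by smallest p, genes called between genotypes, and Dmd, Utrn, Myl4 and myosin heavy chains; exceptions are marked. Members and lists were chosen with earlier results of these data known. Replicate numbers do not pair the arrays.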

Additional observations from a re-analysis of the deposited data

Results flagged for a closer look

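The step of Dmwd differed between genotypes. The log2 change from 14 to 28 days was -1.70 in mdx muscle and 0.28 in wild-type muscle, a difference of -1.98 (adjusted p = 0.0409 by limma over 7453 probe sets). All 3 mdx arrays of 28 days were below all 3 of 14 days, and the wild-type arrays of the 2 ages overlapped. The call of the difference rests on the settings given in the next part.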

How the results depend on the processing

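The count of 8 calls was 86 with array weights, 5 with no variance trend, 22 without replicate 2 of the 56-day and replicate 1 of the 112-day wild-type arrays, and 19 fitted on the 12 mdx arrays. It was 0 fitted on the 12 arrays of 14 and 28 days (562 at an unadjusted p under 0.05 by limma) and 0 on the 6 mdx arrays (493), fits with fewer samples, and 1 to 12 without 1 mdx array. It was between 7 and 11 with an offset of 1 or 64, no filter, a filter at the 60th percentile, quantile normalization, the replicate block, or the largest signal as a covariate. The number of calls of the difference between genotypes (1 probe set, Dmwd) was 0 with an offset of 64, no filter, quantile normalization or the replicate block. It was also 0 with the largest signal, array weights, without the 2 wild-type arrays and on the 12 arrays, and 0 to 1 without 1 array. At the 60th percentile it was 0 too, but there Dmwd was under the filter and was not tested. In the other settings the adjusted p of Dmwd ranged from 0.0177 to 0.998 by limma, and the cause was not tested. Without 1 mdx array the change of Dmd ranged from -0.35 to 0.066 (the latter without replicate 2 of the 14-day arrays), that of Utrn from -0.16 to 0.078, that of Myh1 from -0.21 to 0.30 and that of Myh7 from -0.095 to 0.11, all uncalled; Myh7 was -0.11 with quantile normalization. Same-numbered mdx arrays correlated at -0.19, -0.03 and -0.18 in their deviations from group means, so the numbers do not pair them; with the replicate block 7 calls remained of the 8, without Cd9 (adjusted p = 0.0515 by limma). Of 1439 values of 78 named results, 1311 kept direction and side of the threshold, 79 lost a call, 42 gained a call and 7 turned sign. Calcium handling genes (median 0.10) had a median of -0.14 with array weights and -0.18 without replicate 3 of the 14-day mdx arrays. Signal over background limits dim genes: 4969 probe sets were not tested.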

Other observations

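Genes of the daily clock and of the glucocorticoid response were spread to both sides. Of 25 tested, 15 were higher at 28 days, none was called by limma (at an unadjusted p under 0.05, 7 higher and 1 lower), and the median was 0.34, beside 0.05 in wild-type muscle. Nr1d1, a repressor of the clock, read 531, 767 and 583 and then 824, 1139 and 911 on the mdx arrays without overlap (0.60 ± 0.21, adjusted p = 0.383 by limma). Clock, an activator of the same loop, read 254, 289.6 and 169 and then 314, 521 and 298 (0.62 ± 0.23, adjusted p = 0.435 by limma), with 0.41 without replicate 3 of the 14-day arrays and 0.38 without replicate 2 of the 28-day arrays. The older arrays were higher in both genes.

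Growth factor genes differed by member. Igf1, the growth factor itself, read 1449, 1239 and 635 and then 1488, 2038 and 1915 without overlap (0.77 ± 0.27, adjusted p = 0.394 by limma). Without replicate 3 of the 14-day arrays the change was 0.42 (adjusted p = 0.746 by limma). Its second probe set had a step of 0.36 with overlapping ages. Igfbp2, a protein that binds it, read 491, 476 and 672 and then 319, 398 and 339 (-0.60 ± 0.25, adjusted p = 0.515 by limma). Of 18 tested genes of this signalling 7 were higher and 11 lower, none was called by limma (at an unadjusted p under 0.05, 1 higher and 3 lower), and the median was -0.25. That median was 0.0066 with a filter at the 60th percentile and -0.37 without replicate 2 of the 14-day mdx arrays.

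Among nerve and myelin genes (12 tested, 4 higher and 8 lower, none called by limma, 1 higher and 1 lower at an unadjusted p under 0.05, median -0.05), Mbp, a myelin protein, read 2487, 3041 and 2995 and then 1292, 1279 and 1919.6 (-0.94 ± 0.28, adjusted p = 0.299 by limma). Every older array was lower. A second Mbp probe set had a step of 0.11, with overlapping ages. The list's median was 0.011 without replicate 2 and -0.13 without replicate 3 of the 14-day arrays, so no direction can be read.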
